A study of Homo sapiens with 12 samples.

Results

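Complex I subunits and assembly factors were followed in iPSC-derived microglia (iMGLs) with and without LACTB, a filamentous serine protease of mitochondria. Genes were taken by symbol as NDUFAB1 or as NDUFA, NDUFB, NDUFC, NDUFS, NDUFV or NDUFAF followed by a number, which gave 46 of the 62703 genes in the count table. They fell into 38 structural subunits and 8 assembly factors (NDUFAF1 to NDUFAF8), and all 46 passed the filter on low counts that 17577 genes passed when the 2 libraries of each clone were summed. The iMGLs came from the WTC11 iPSC line, an established human line, edited with CRISPR. The WT clones, 3 in number, are called J, K and L, and the 3 clones with LACTB KO are called A, B and C. Each clone went through differentiation 1 and differentiation 2, so each genotype had 6 libraries and the study 12. Every culture received IL34, TGFb and MCSF, was replated at day 24 with CX3CL1 and CD200 added, and was collected at day 27 without further treatment. These days are those of the labels, and the methods of the study give later days for the addition and the collection. All clones thus share 1 donor line, each genotype rests on 3 clones, and nothing in the labels pairs a WT clone with a LACTB KO clone. The p-values below therefore measure the spread between clones of this line.

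The labels were first checked on the targeted gene. Levels are given in CPM, counts scaled to a common library total. LACTB was 71.6, 78.6 and 76.4 for J, K and L (WT) in differentiation 1 and 81.2, 98.1 and 75.4 in differentiation 2. For A, B and C (LACTB KO) it was 9.78, 44.4 and 7.93 in differentiation 1 and 9.52, 51.6 and 7.49 in differentiation 2. All 6 LACTB KO libraries lay under all 6 WT libraries, and clone B kept the highest LACTB level of the LACTB KO clones in both differentiations. On clone sums the log2 fold change was -1.87 ± 0.67 (SE, 3 against 3 clones, edgeR quasi-likelihood test with Benjamini-Hochberg adjustment over all genes, adjusted p = 0.735), and without clone B it was -3.20 with an adjusted p of 0.0157.

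Complex I (NADH:ubiquinone oxidoreductase) is the entry point of electrons from NADH into the respiratory chain and pumps protons across the inner mitochondrial membrane. Its peripheral arm holds the N module, which oxidises NADH, and the Q module, which passes electrons to ubiquinone, and its membrane arm holds the proton pumping subunits that the mitochondrial genome encodes. Core subunits carry the catalysis, accessory subunits surround them, and assembly factors help to build the complex without staying in it. In microglia, as in other macrophages, the balance between respiration and glycolysis is known to shift with activation. Here the structural members comprised 7 nuclear core subunits, 30 accessory subunits and NDUFA4, which carries a complex I name but is now placed in complex IV.

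The libraries held between 24153233 and 28406943 estimated counts. The 15 microglia markers summed to between 7578 and 9705 CPM in the WT libraries and between 7415 and 8042 CPM in the LACTB KO libraries, and each of the 15 was above 3 counts in every library. The 15 stromal markers summed to between 26.7 and 10586 CPM in the WT libraries and between 23.7 and 1152 CPM in the LACTB KO libraries. The collagen genes COL1A1, COL1A2 and COL3A1 reached 3678, 3155 and 2450 CPM. PDGFRB, TWIST1 and PDGFRA reached at most 7.79, 3.04 and 0.417 CPM, and the highest values of the others lay between 58.6 (THY1) and 569 CPM (COL5A1). The libraries thus differed in stromal marker signal, and whether it came from another cell type was not tested. Of that list, 5 genes (DCN, LUM, THY1, PDGFRA and TWIST1) were at 3 counts or fewer in at least 1 library, PDGFRA in 8 and TWIST1 in 9. Endothelial markers summed to between 328 and 443 CPM over all libraries, neural markers to between 21.4 and 103 CPM, and erythroid and megakaryocyte markers to between 8.66 and 16.1 CPM. One gene carried most of the endothelial sum, PECAM1 at 328 to 443 CPM, a gene that myeloid cells also express, while CDH5, CLDN5, VWF and KDR each reached at most 6.26 CPM. SLC1A3, at 14.1 to 96.8 CPM, made up most of the neural sum at its highest. Markers of pluripotent cells and of neutrophils and mast cells summed to at most 0.787 and 1.53 CPM. In bulk libraries, fewer cells of a type and less RNA per cell cannot be told apart, which holds for every level below.

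All members were measured well above the counting floor, the lowest count of any member in any library being 70, for NDUFAF2. Levels of different genes were compared per kb of the canonical transcript in GENCODE 44. On that scale the structural subunits had a median of 51.9 CPM per kb (from 3.08 to 165) and the assembly factors a median of 6.21 CPM per kb (from 0.932 to 41.1), as averages over the 12 libraries. The highest structural member was NDUFS5, an accessory subunit of the membrane arm, with 165.3 CPM per kb, and NDUFA13, also of the membrane arm, stood next to it at 165.2 CPM per kb, a difference far smaller than the spread of either gene over the libraries. The lowest was NDUFA9, a subunit of the Q module that binds a nucleotide cofactor, with 3.08 CPM per kb. These ranks depended on the length used, since some canonical transcripts have long untranslated ends: NDUFS1 has 11660 nt of transcript but 2181 nt of coding sequence. Per kb of coding sequence the highest member was NDUFA4, at 405 CPM per kb, NDUFS5 followed at 257 and NDUFA9 was the lowest structural member at 22.8. The rank of NDUFA9 is uncertain on both lengths, since ENSG00000255639 and ENSG00000272921, which share 1103 and 606 of its exonic bases on the same strand, held 679 and 171 counts per library against 699 for NDUFA9. NDUFAF5, an arginine hydroxylase that acts on NDUFS7, was the lowest of all 46 on either length, with 0.932 CPM per kb of transcript and 4.91 CPM per kb of coding sequence.

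**Figure D1:**
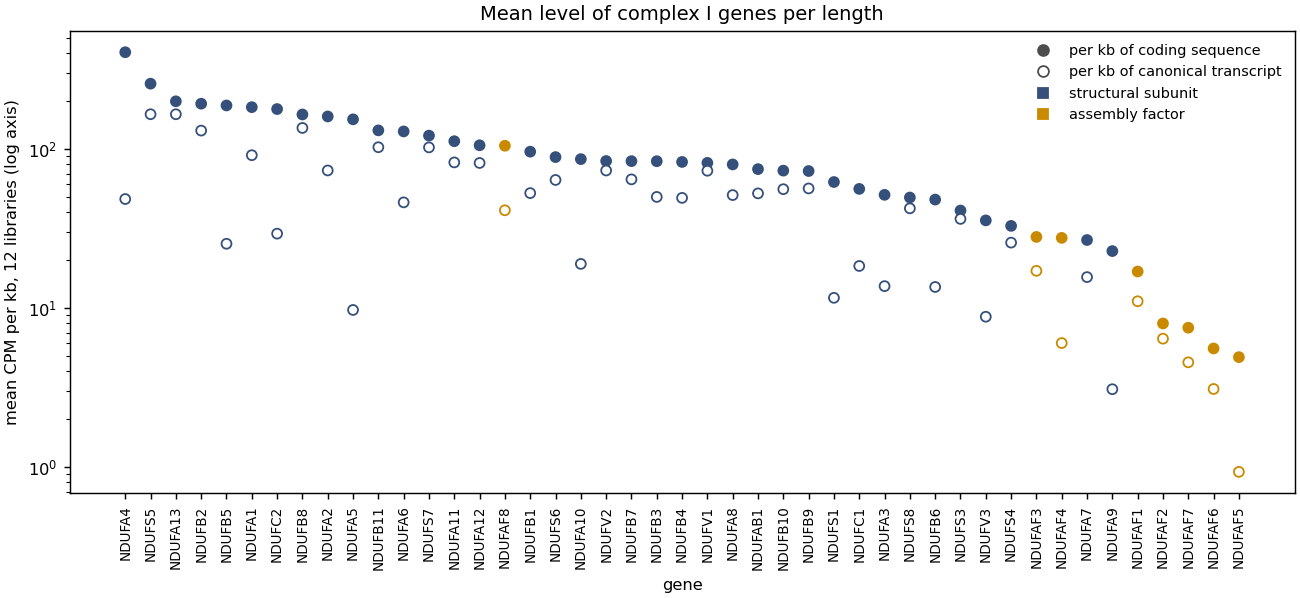
Mean level of complex I genes over the 12 libraries, in CPM per kb on a log axis, per kb of coding sequence (filled) and per kb of canonical transcript (open), with genes ordered by the former. Per kb of coding sequence, NDUFAF1, NDUFAF2, NDUFAF5, NDUFAF6 and NDUFAF7 (gold) lie below all structural subunits plotted (blue), whereas NDUFAF3, NDUFAF4 and NDUFAF8 lie among them.

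Within a gene, levels across the 12 libraries stayed close together. The coefficient of variation was between 5.83% and 18.0% for the structural subunits, with a median of 11.96%, and between 9.20% and 26.2% for the assembly factors, with a median of 12.8%. The ratio of the highest to the lowest library reached 2 for no structural subunit and for 1 assembly factor, NDUFAF2, a chaperone of the late assembly step, at 2.61. Most structural subunits were high and low in the same libraries. Clone B of differentiation 1 was the highest library for 20 of 38 and clone J of differentiation 2 for 12 of 38, whereas clone L of differentiation 1 was the lowest library for 22 of 38. Pearson correlations of log2 CPM over the 12 libraries, given as a description, had a median of 0.70 over the 703 pairs of structural subunits, 0.44 over the 28 pairs of assembly factors and 0.53 over the 304 mixed pairs. The points share clones, depth and scaling, so they are not independent. Neither the counts of highest and lowest libraries nor the correlations were taken over all genes. Whether the pattern is particular to these members was therefore not tested.

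**Figure D2:**
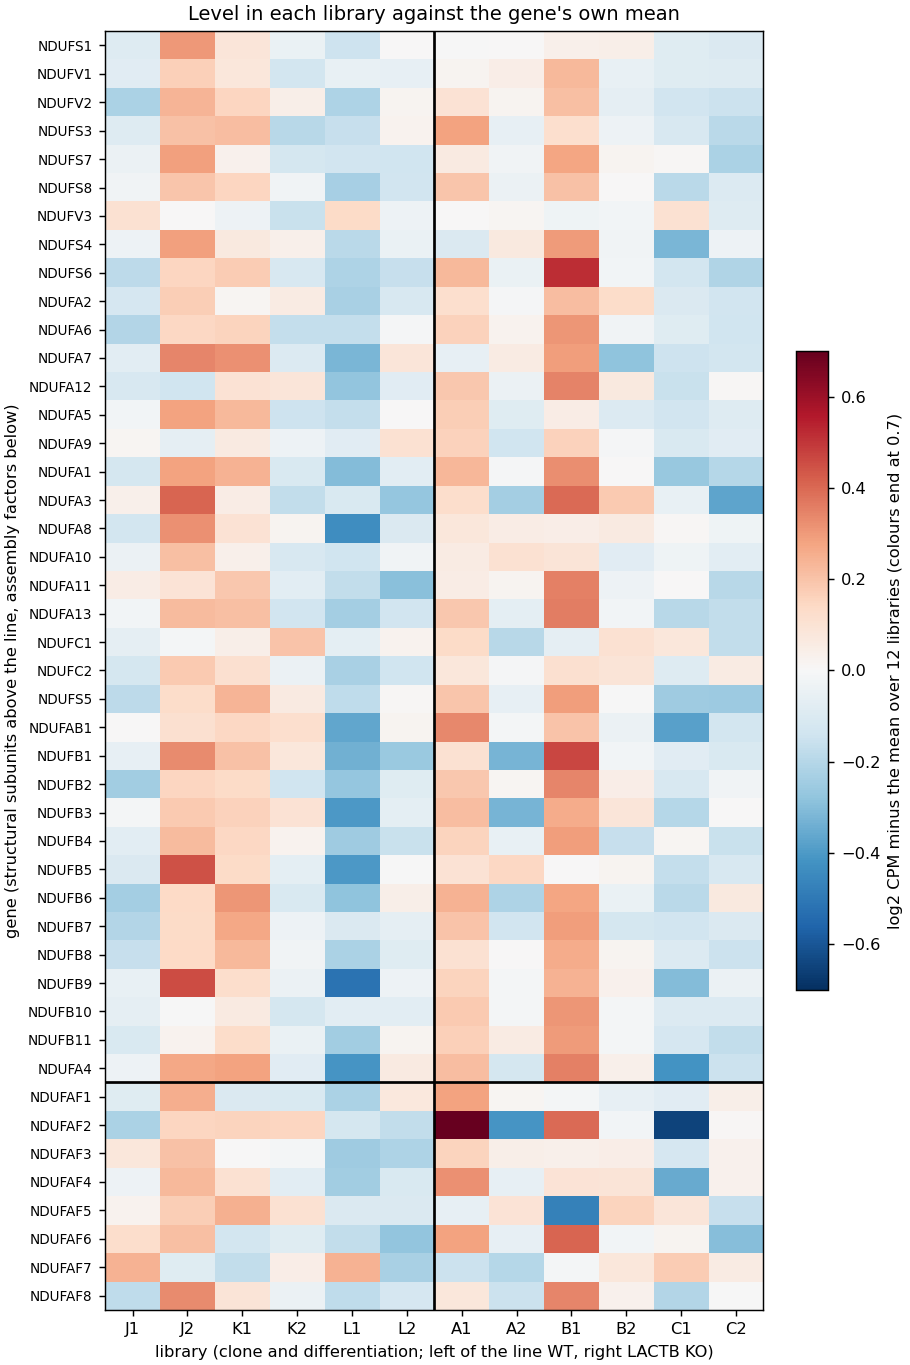
Level of complex I genes (rows, structural subunits above the line and assembly factors below) in each library (columns, WT to the left and LACTB KO to the right), as log2 CPM minus the gene's mean over the 12 libraries. Columns J2 and B1 are red for most structural subunits and column L1 is blue for most, and NDUFV3, NDUFC1, NDUFAF5 and NDUFAF7 depart from the pattern.

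The member closest to the mean of the other structural subunits was NDUFA1, an accessory subunit of the membrane arm needed for its assembly (ENSG00000125356.7, chrX:119871832-119876662, plus strand in hg38), with r = 0.99 over the 12 libraries, followed by NDUFA13 with 0.97. NDUFA1 was 47.6 CPM in clone B of differentiation 1 and 30.8 CPM in clone L of differentiation 1. Members at the other end were NDUFAF7 (r = -0.57), an arginine methyltransferase of the matrix (ENSG00000003509.16, chr2:37231631-37253403, plus strand), NDUFV3 (r = -0.35), an accessory subunit of the N module, NDUFAF5 (r = -0.082) and NDUFC1 (r = 0.15). NDUFV3 was highest, at 55.3 CPM, in the library where most structural subunits were lowest, and NDUFAF7 was 11.7 CPM in clone J of differentiation 1 and 9.30 CPM in clone J of differentiation 2, where 12 structural subunits were highest. Exons of NDUFAF7 overlap PRKD3 on the opposite strand over 265 bases, and PRKD3 held 2184 counts per library against 271 for NDUFAF7. Those of NDUFC1 overlap NAA15 on the opposite strand over 584 bases, with 1829 counts per library for NAA15 and 347 for NDUFC1. The library kit does not mark strand and how reads in such overlaps were assigned is not given in the sources used here.

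Since members moved together across libraries, the sequence in front of their start sites was read from RefSeq promoter windows (GRCh38.p14). Windows were found for 39 of 46 members (51 windows, 33 members with 1 window), and members without one included NDUFC2, NDUFS5, NDUFB5, NDUFB9, NDUFA4 and NDUFAF6. The 250 bases upstream were searched on both strands. The letters GCGCNNGCG, a form of the binding motif of NRF1, stood in 38.5% of the 39 windows of structural subunits and 16.7% of the 12 windows of assembly factors, against 14.3% of 35116 windows of all genes and 27.5% of the 16148 windows with at least 60% GC. The letters CCGGAAG, the core of ETS factors such as GABP, stood in 12.8%, 16.7%, 8.5% and 12.7% of these groups. GGGCGG, the GC box of SP1, stood in 66.7%, 41.7%, 42.6% and 75.4%, and GGCGGC, the core of YY1, which can overlap the GC box, in 30.8%, 25.0%, 29.2% and 55.0%. CACGTG stood in 7.7%, 8.3%, 6.3% and 8.9%, and CCAAT in 25.6%, 33.3%, 32.0% and 27.0%. A GC-rich window holds more of the GC-rich motifs, and a match describes letters and not binding.

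The 100 bases before the start site are printed 5' to 3' for members that followed the structural mean most closely (NDUFA1 and NDUFA13), for the member with the smallest p in the interaction of genotype and differentiation (NDUFB4), and for 3 members that departed from the mean (NDUFV3, NDUFAF5 and NDUFAF7), each with 1 window. Capitals mark matches to the NRF1 or ETS letters.
NDUFA1 (chrX:119871732-119871831, plus strand): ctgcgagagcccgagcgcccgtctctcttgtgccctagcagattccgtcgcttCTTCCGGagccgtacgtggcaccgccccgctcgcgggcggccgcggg
NDUFA13 (chr19:19516125-19516224, plus strand): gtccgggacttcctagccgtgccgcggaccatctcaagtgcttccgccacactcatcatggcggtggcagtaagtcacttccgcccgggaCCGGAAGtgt
NDUFB4 (chr3:120596236-120596335, plus strand): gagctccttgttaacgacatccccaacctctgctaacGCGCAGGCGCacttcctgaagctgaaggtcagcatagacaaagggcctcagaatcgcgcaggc
NDUFV3 (chr21:42893209-42893308, plus strand): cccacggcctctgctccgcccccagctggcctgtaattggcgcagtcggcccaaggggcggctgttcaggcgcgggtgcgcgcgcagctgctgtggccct
NDUFAF5 (chr20:13784928-13785027, plus strand): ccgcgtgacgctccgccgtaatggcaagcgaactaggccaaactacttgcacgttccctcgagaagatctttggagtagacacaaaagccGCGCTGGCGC
NDUFAF7 (chr2:37231558-37231657, plus strand): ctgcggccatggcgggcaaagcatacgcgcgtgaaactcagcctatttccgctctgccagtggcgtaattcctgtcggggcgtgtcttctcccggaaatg
Counted back from the start site, NDUFA1 has an ETS match at bases 47 to 41 and NDUFA13 at bases 10 to 4. NDUFB4 has overlapping NRF1 matches over bases 63 to 54, and NDUFAF5 over bases 10 to 1. NDUFV3 and NDUFAF7 have neither in this stretch. These 6 windows were chosen with the levels known and are shown as a description.

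Averaged over the 38 structural subunits, the mean log2 CPM in differentiation 1 was 5.37, 5.59 and 5.23 for J, K and L (WT) and 5.58, 5.68 and 5.32 for A, B and C (LACTB KO). In differentiation 2 it was 5.64, 5.40 and 5.39 in the WT clones and 5.41, 5.45 and 5.34 in the LACTB KO clones. The genotypes overlapped in both differentiations, and over the 6 libraries of each genotype the mean was 5.44 ± 0.153 (SD) in WT and 5.46 ± 0.142 in LACTB KO. For the 8 assembly factors the mean log2 CPM in differentiation 1 was 3.31, 3.34 and 3.19 in the WT clones and 3.52, 3.41 and 3.18 in the LACTB KO clones, and in differentiation 2 it was 3.50, 3.32 and 3.18 and 3.23, 3.36 and 3.28. Their mean was 3.31 ± 0.118 in WT and 3.33 ± 0.127 in LACTB KO. Summed CPM of structural subunits over that of assembly factors was 21.7 ± 1.16 in WT and 21.5 ± 1.14 in LACTB KO.

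**Figure D3:**
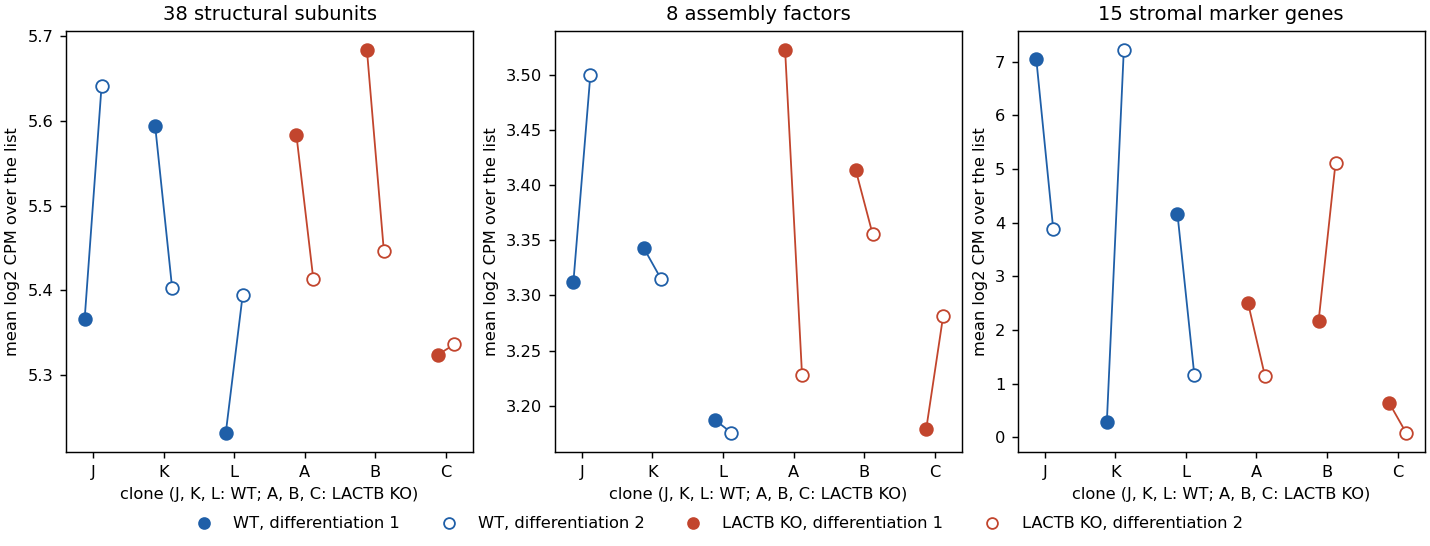
Mean log2 CPM over the 38 structural subunits (left), the 8 assembly factors (middle) and stromal markers (right), with 1 point per library and a line joining the 2 libraries of a clone. The stromal mean takes only those of the 15 markers that passed the filter on low counts, whereas the panel title counts all 15 listed. Structural subunits lie between 5.23 and 5.68 with the genotypes overlapping, and the stromal mean lies between 0.085 and 7.21.

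The comparison of the 3 LACTB KO clones with the 3 WT clones, with the 2 differentiations of each clone summed, asked whether loss of LACTB came with another level of complex I transcripts. No member passed an adjusted p of 0.05 or an unadjusted p of 0.05 in the edgeR quasi-likelihood test. Over all 17577 genes 0% passed the former and 6.36% (1118 genes) the latter. Of the structural subunits 28 of 38 had a log2 fold change above 0, with a median of 0.028 (from -0.086 to 0.16), where 51.7% of all genes tested lay above 0 and their median was 0.0067. Of the assembly factors 6 of 8 lay above 0, with a median of 0.056. The median standard error of a member was 0.11 on the log2 scale, so differences of this size were not detectable with 3 clones a genotype. Without WT clone L the structural median was -0.041 and 12 of 38 lay above 0, without LACTB KO clone B, which held the most LACTB transcript of its genotype, it was -0.0155 and 14 of 38 did, and without LACTB KO clone C it was 0.094 and 34 of 38 did. DESeq2 on the same sums passed 171 genes at an adjusted p of 0.05 and no member.

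Among the core subunits of the N module, NDUFS1, the largest iron-sulfur subunit (ENSG00000023228.14, chr2:206114817-206159509, minus strand in hg38), averaged 137 ± 16.0 CPM for WT and 133 ± 5.44 CPM for LACTB KO (SD over 6 libraries of each). NDUFV1, which carries the flavin that accepts electrons from NADH (ENSG00000167792.13, chr11:67605653-67612554, plus strand), averaged 113 ± 8.90 CPM for WT and 115 ± 9.91 CPM for LACTB KO. NDUFV2, its iron-sulfur partner (ENSG00000178127.13, chr18:9102630-9134345, plus strand), averaged 62.9 ± 8.10 CPM for WT and 62.5 ± 6.16 CPM for LACTB KO. The log2 fold changes of these 3 genes were -0.037 ± 0.074, 0.029 ± 0.07 and -0.0027 ± 0.087 (SE), each smaller than its error.

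In the Q module, NDUFS7 (ENSG00000115286.21, chr19:1383527-1395589, plus strand) carries the iron-sulfur cluster nearest to ubiquinone. NDUFS7 ranged from 70.1 to 94.0 CPM with a median of 72.8 over the 6 WT libraries and from 66.0 to 93.3 CPM with a median of 77.8 over the 6 LACTB KO libraries, and the highest WT value, 94.0 CPM in clone J of differentiation 2, stood apart from the next at 78.7 CPM. NDUFS3 (ENSG00000213619.11, chr11:47565336-47584562, plus strand), which starts the assembly of the Q module, averaged 32.5 ± 4.06 CPM for WT and 32.5 ± 4.01 CPM for LACTB KO. NDUFS8 (ENSG00000110717.13, chr11:68030617-68036644, plus strand), which carries iron-sulfur clusters on the electron path, averaged 30.9 ± 3.50 CPM for WT and 31.4 ± 3.48 CPM for LACTB KO. Log2 fold changes of these 3 genes lay between 0.0047 and 0.044, with p between 0.658 and 0.959 before adjustment for multiple testing in the edgeR fit.

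Among the accessory subunits the 3 with the smallest p were NDUFB2, NDUFA12 and NDUFB10. NDUFB2, of the distal membrane arm (ENSG00000090266.13, chr7:140690777-140722790, plus strand), ranged from 49.9 to 66.7 CPM with a median of 55.7 in WT and from 55.8 to 76.3 CPM with a median of 61.4 in LACTB KO, with a log2 fold change of 0.16 ± 0.091 (unadjusted p = 0.132, adjusted p = 0.878 in the edgeR fit). NDUFA12, which takes its place in the N module after NDUFAF2 leaves (ENSG00000184752.14, chr12:94895297-95003748, minus strand), ranged from 37.6 to 48.9 CPM with a median of 42.7 in WT and from 41.0 to 58.0 CPM with a median of 46.8 in LACTB KO, with a log2 fold change of 0.15 ± 0.11 (unadjusted p = 0.213, adjusted p = 0.878, edgeR). NDUFB10, of the distal membrane arm (ENSG00000140990.15, chr16:1959538-1961975, plus strand), had a log2 fold change of 0.10 ± 0.08 (unadjusted p = 0.249, adjusted p = 0.878, edgeR). The genotypes overlapped for all 3 genes. Exons of NDUFB2 overlap BRAF on the opposite strand over 1239 bases, with 1002 counts per library for BRAF and 1645 for NDUFB2. By module, 4 of 7 accessory subunits of the N module, 1 of 2 of the Q module, 7 of 9 of the proximal and 11 of 12 of the distal membrane arm lay above 0.

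Of the assembly factors, NDUFAF1, which helps to build the membrane arm, averaged 16.3 ± 1.98 CPM for WT and 17.0 ± 1.64 CPM for LACTB KO. NDUFAF2 averaged 3.93 ± 0.489 CPM for WT and 4.17 ± 1.49 CPM for LACTB KO, and its 6 LACTB KO libraries spread from 2.51 to 6.55 CPM. NDUFAF3 and NDUFAF4, which act together on the Q module, averaged 15.1 ± 1.82 CPM for WT and 15.7 ± 0.945 CPM for LACTB KO and 14.2 ± 1.66 CPM for WT and 14.7 ± 2.18 CPM for LACTB KO. NDUFAF5 averaged 5.27 ± 0.529 CPM for WT and 4.89 ± 0.738 CPM for LACTB KO. NDUFAF6 averaged 5.33 ± 0.696 CPM for WT and 5.79 ± 1.02 CPM for LACTB KO, and its exons overlap TP53INP1 and PLEKHF2, which held 2416 and 1295 counts per library against 151 for NDUFAF6. NDUFAF7 averaged 10.02 ± 1.42 CPM for WT and 9.87 ± 0.972 CPM for LACTB KO and NDUFAF8, which acts with NDUFAF5, 23.0 ± 3.34 CPM for WT and 23.5 ± 3.26 CPM for LACTB KO. Their log2 fold changes ran from -0.099 ± 0.14 for NDUFAF5 to 0.12 ± 0.16 for NDUFAF6, and the smallest unadjusted p of the 8 in the edgeR fit was 0.485.

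The size of the difference changed when a stromal covariate entered the fit. The covariate was the mean log2 CPM of the stromal markers kept by the filter on low counts. With it the median log2 fold change was 0.24 for the structural subunits, 37 of 38 lying above 0, and 0.26 for the assembly factors. In that edgeR fit 18 of 46 members (17 structural subunits and NDUFAF8) were higher in LACTB KO at an unadjusted p under 0.05, where 1.45% of all genes were, and no member passed after adjustment, the smallest adjusted p of a member being 1. Structural subunits move together across libraries, so 18 of 46 does not stand for separate observations. LACTB itself had a log2 fold change of -1.06 in that fit. Over the 6 single libraries of each genotype the stromal marker mean was 3.96 ± 2.88 (SD) in WT and 1.94 ± 1.80 in LACTB KO. The fit itself took that mean on the clone sums, and those values are not given here. The covariate was thus tied to the genotype, by an amount that these library values do not measure. Over the 12 libraries, Pearson r of a structural subunit with the stromal mean of the library lay between -0.40 and 0.36, given as a description. How far the stromal signal takes part in the result was not tested beyond this fit. After the trend of the fold changes over level, length and GC content across all genes was subtracted, the structural median was -0.15 and 4 of 38 lay above 0. That trend was fitted by least squares over all genes, whose fold changes reached -7.19, so strongly lower genes can weigh on it. All genes under 1 kb had a median of 0.024 in this comparison.

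In differentiation 1, the 3 LACTB KO libraries were set against the 3 WT libraries. Of the structural subunits 37 of 38 had a log2 fold change above 0, all except NDUFV3, with a median of 0.14 (from -0.044 to 0.29), where 49.9% of the 15708 genes tested lay above 0 and their median was -0.00065. All 7 core subunits lay above 0, with a median of 0.11. The 12 subunits of the distal membrane arm had the highest module median among modules of 3 or more members after the accessory N module, 0.17 against 0.19. Of the assembly factors 6 of 8 lay above 0, with a median of 0.13. No member passed an adjusted or an unadjusted p of 0.05 in the edgeR test, against 0% and 3.21% (505 genes) of all genes, and the median standard error of a member was 0.16. Because structural subunits move together across libraries, a count such as 37 of 38 does not stand for 38 separate observations.

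The 3 accessory subunits with the smallest p in differentiation 1 were NDUFB2, NDUFA2 and NDUFS6. NDUFB2 was 50.8, 66.1 and 49.9 CPM for J, K and L (WT) and 68.6, 76.3 and 55.8 CPM for A, B and C (LACTB KO), a log2 fold change of 0.27 ± 0.16 (unadjusted p = 0.145, adjusted p = 0.983, edgeR). Clone C lay within the WT range and clones A and B above it. NDUFA2, of the N module (ENSG00000131495.9, chr5:140638740-140647771, minus strand), was 43.6, 47.8 and 40.5 CPM for J, K and L (WT) and 51.3, 55.0 and 44.2 CPM for A, B and C (LACTB KO), a log2 fold change of 0.19 ± 0.12 (unadjusted p = 0.162, adjusted p = 0.983, edgeR). NDUFS6, a zinc binding subunit of the N module (ENSG00000145494.12, chr5:1801407-1816048, plus strand), was 28.8, 36.9 and 28.1 CPM for J, K and L (WT) and 38.3, 46.8 and 29.9 CPM for A, B and C (LACTB KO), a log2 fold change of 0.29 ± 0.19 (unadjusted p = 0.166, adjusted p = 0.983, edgeR). For both, clones A and B lay above all WT clones and clone C did not. NDUFV3 was 54.2, 49.2 and 55.3 CPM for J, K and L (WT) and 50.5, 49.3 and 54.2 CPM for A, B and C (LACTB KO), a log2 fold change of -0.044 ± 0.093.

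The assembly factor NDUFAF1 (ENSG00000137806.10, chr15:41387218-41409403, minus strand) was 15.6, 15.4 and 14.2 CPM for J, K and L (WT) and 20.1, 16.4 and 15.7 CPM for A, B and C (LACTB KO). Its LACTB KO libraries lay above its WT libraries, clone C of LACTB KO and clone J of WT being almost level, with a log2 fold change of 0.20 ± 0.15 (unadjusted p = 0.214, adjusted p = 0.983, edgeR). It was the only one of the 46 members whose libraries did not overlap in differentiation 1. Over all 15530 genes kept in the 12 libraries, 2.4% had LACTB KO libraries above WT without overlap and 2.9% below, so 1 of 46 is a share near the background. Exons of NDUFAF1 overlap RTF1 on the opposite strand over 174 bases, and RTF1 held 2155 counts per library against 450 for NDUFAF1. NDUFAF5 was 5.12, 5.999 and 4.70 CPM for J, K and L (WT) and 4.85, 3.63 and 5.35 CPM for A, B and C (LACTB KO), a log2 fold change of -0.20 ± 0.23. NDUFAF7 was 11.7, 8.76 and 11.7 CPM for J, K and L (WT) and 8.91, 9.79 and 11.2 CPM for A, B and C (LACTB KO), a log2 fold change of -0.10 ± 0.19.

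The size of the difference in differentiation 1 depended on single clones. The structural median ran from 0.046 without WT clone L to 0.27 without WT clone K. Without LACTB KO clone C, 4 of 46 members (NDUFB2, NDUFB10, NDUFS6 and NDUFA12) were higher in LACTB KO at an unadjusted p under 0.05 in the edgeR fit, against 2.02% of all genes, and the smallest adjusted p of a member was 0.723. After the trend over level, length and GC content was subtracted, the structural median was -0.031 and 14 of 38 lay above 0. Strongly lower genes, down to -9.35 here, can weigh on this least squares trend as well.

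In differentiation 2 the same comparison gave differences on the other side of 0. Of the structural subunits 6 of 38 had a log2 fold change above 0 (NDUFV3, NDUFA12, NDUFA11, NDUFC2, NDUFB2 and NDUFB10) and 32 below, with a median of -0.094 (from -0.23 to 0.050), where 50.4% of the 15692 genes tested lay above 0 and their median was 0.0016. All 7 core subunits lay below 0, with a median of -0.098. Of the assembly factors 2 of 8, NDUFAF3 and NDUFAF7, lay above 0, and the median was -0.058. Again no member passed an adjusted or an unadjusted p of 0.05 in the edgeR test, against 0% and 3.36% (527 genes) of all genes. DESeq2 passed 3 genes in each differentiation and no member.

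The 3 accessory subunits with the smallest p in differentiation 2 were NDUFS5, NDUFAB1 and NDUFB7. NDUFS5 (ENSG00000168653.11, chr1:39026318-39034636, plus strand) was 88.5, 84.9 and 81.6 CPM for J, K and L (WT) and 78.0, 80.9 and 68.1 CPM for A, B and C (LACTB KO), a log2 fold change of -0.17 ± 0.087 (unadjusted p = 0.0949, adjusted p = 0.929, edgeR). NDUFAB1, the mitochondrial acyl carrier protein, which serves fatty acid synthesis as well as complex I (ENSG00000004779.10, chr16:23581014-23596316, minus strand), was 37.4, 37.5 and 35.1 CPM for J, K and L (WT) and 34.2, 33.6 and 31.7 CPM for A, B and C (LACTB KO), a log2 fold change of -0.15 ± 0.076 (unadjusted p = 0.0969, adjusted p = 0.929, edgeR). NDUFB7, of the distal membrane arm (ENSG00000099795.7, chr19:14566078-14572066, minus strand), was 37.5, 33.4 and 32.7 CPM for J, K and L (WT) and 31.1, 31.4 and 31.8 CPM for A, B and C (LACTB KO), a log2 fold change of -0.14 ± 0.084 (unadjusted p = 0.150, adjusted p = 0.929, edgeR). For these 3 subunits every LACTB KO library lay below every WT library, and no member lay above without overlap. Among all 15530 genes, 4.52% lay below without overlap and 4.31% above, so 3 of 46 members is a share near the background. The core subunit with the smallest p was NDUFV2, which was 73.7, 64.1 and 63.1 CPM for J, K and L (WT) and 63.3, 59.7 and 56.3 CPM for A, B and C (LACTB KO), a log2 fold change of -0.17 ± 0.091 (unadjusted p = 0.115, adjusted p = 0.929, edgeR). WT clone J decided the sign of the median: without it the structural median was 0.017 and 22 of 38 lay above 0, and the assembly factor median was 0.047.

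Whether the genotype difference differed between the differentiations was tested as an interaction in all 12 libraries, with clone as a fixed effect. A value below 0 means that the step from differentiation 1 to differentiation 2 was lower in LACTB KO than in WT. Of the structural subunits 37 of 38 lay below 0, all except NDUFV3, with a median of -0.24 (from -0.44 to 0.067). Of the assembly factors 6 of 8 lay below 0, with a median of -0.17, and NDUFAF5 and NDUFAF7 lay above. Over the 16681 genes tested 49.4% lay above 0. No member passed an adjusted or an unadjusted p of 0.05 in the edgeR fit, against 0% and 0.917% (153 genes) of all genes, and the median standard error of a member was 0.20, so the change of sign between the differentiations is a description and not a difference shown by the test.

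The smallest p in the interaction was that of NDUFB4, of the distal membrane arm (ENSG00000065518.8, chr3:120596328-120602507, plus strand), with a log2 difference of -0.38 ± 0.16 (unadjusted p = 0.0543, adjusted p = 1.000, edgeR). NDUFB4 was 30.2, 35.2 and 26.8 CPM for J, K and L (WT) and 35.4, 39.1 and 32.2 CPM for A, B and C (LACTB KO) in differentiation 1. In differentiation 2 it was 37.1, 32.4 and 28.6 CPM for J, K and L (WT) and 30.7, 28.4 and 28.6 CPM for A, B and C (LACTB KO). It was higher in differentiation 2 in WT clones J and L and lower in WT clone K and in all 3 LACTB KO clones. NDUFA2 had a log2 difference of -0.24 ± 0.12 (unadjusted p = 0.0839, adjusted p = 1.000, edgeR), and in differentiation 2 it was 53.3, 49.2 and 43.8 CPM for J, K and L (WT) and 47.0, 51.7 and 43.1 CPM for A, B and C (LACTB KO). It was higher in differentiation 2 than in differentiation 1 in all 3 WT clones and lower in all 3 LACTB KO clones. NDUFB1, of the distal membrane arm (ENSG00000183648.11, chr14:92116122-92121917, minus strand), had a log2 difference of -0.44 ± 0.22 (unadjusted p = 0.0870, adjusted p = 1.000, edgeR). Without WT clone K, 18 of 46 members, all structural, lay below 0 at an unadjusted p under 0.05, against 3.57% of all genes, and the smallest adjusted p of a member was 0.642.

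**Figure D4:**
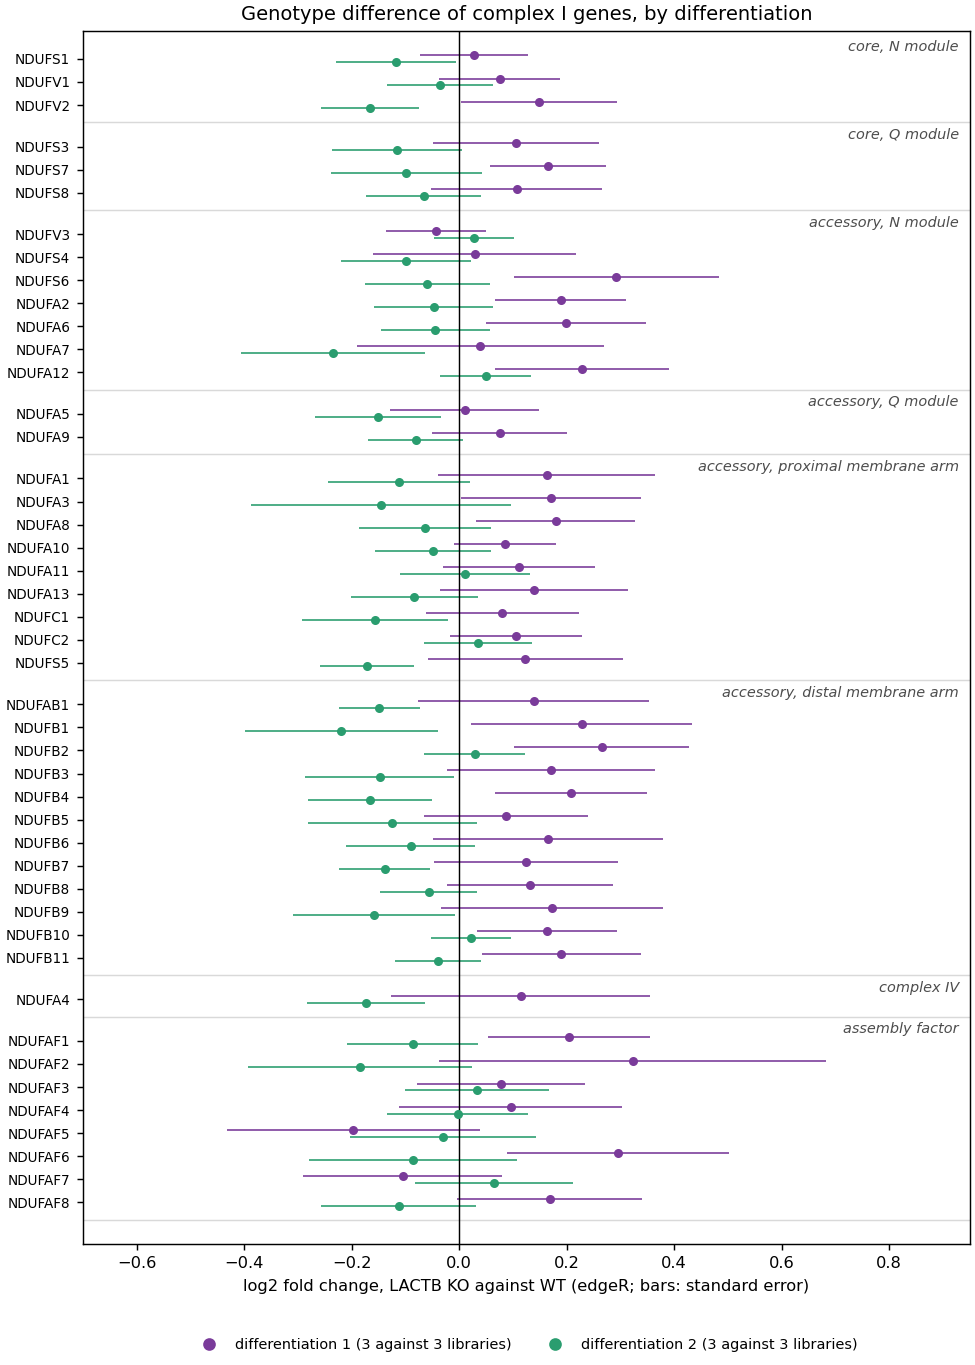
Log2 fold change of LACTB KO against WT for complex I genes in differentiation 1 (purple) and differentiation 2 (green), with standard errors from edgeR, grouped by module. In differentiation 1 all structural subunits plotted except NDUFV3 lie right of 0, and in differentiation 2 all plotted except NDUFV3, NDUFA12, NDUFA11, NDUFC2, NDUFB2 and NDUFB10 lie left of it.

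Clone by clone, the mean of the structural subunits in differentiation 2 minus that in differentiation 1 was 0.28, -0.19 and 0.16 on the log2 scale for J, K and L (WT) and -0.17, -0.24 and 0.013 for A, B and C (LACTB KO). In WT clones J and L 35 and 32 of 38 structural subunits were higher in differentiation 2, and in WT clone K 2 of 38 were, so the WT clones did not move together. In LACTB KO clones A, B and C 8, 5 and 19 of 38 were higher. The share of all genes higher in differentiation 2 was not taken clone by clone. Whether these steps belong to the members or to the whole library was therefore not tested. The stromal marker mean over the same step was -3.17, 6.93 and -3.02 in the WT clones and -1.36, 2.95 and -0.56 in the LACTB KO clones. It moved the other way from the structural subunits in 5 of 6 clones, all except clone A. In clone C, counted among the 5, the structural step was only 0.013, with 19 of 38 higher. With the stromal mean as a covariate, chosen after seeing the data, the structural median was 0.078 in differentiation 1, -0.075 in differentiation 2 and -0.23 for the interaction. Averaged over all 6 clones, differentiation 2 against differentiation 1 had 12 of 38 structural subunits and 5 of 8 assembly factors above 0, with medians of -0.037 and 0.022, where 48.8% of all genes lay above 0. No member passed an unadjusted p of 0.05 there, where 8.1% of all genes did. The assembly factor median of the interaction rested on clone A, since it was 0.015 without it.

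Structural subunits are small proteins and their transcripts are short. The median canonical transcript was 693.5 nt for the structural subunits and 1652 nt for the assembly factors, against 3026 nt over all genes tested, and 26 of 38 structural subunits were under 1 kb. In differentiation 1 shorter structural subunits had higher log2 fold changes, with a Spearman correlation of -0.60 between fold change and length over the 38 members, given as a description. All genes leaned the same way: those under 1 kb had a median of 0.062 and those over 4 kb a median of -0.042, while structural subunits of these classes had medians of 0.16 (26 members) and 0.052 (6 members). In differentiation 2 the correlation was 0.12. Genes under 1 kb had a median of -0.020, and structural subunits of that class had a median of -0.11. The part of length in the differences between the genotypes was examined only by the subtraction of the trend.

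**Figure D5:**
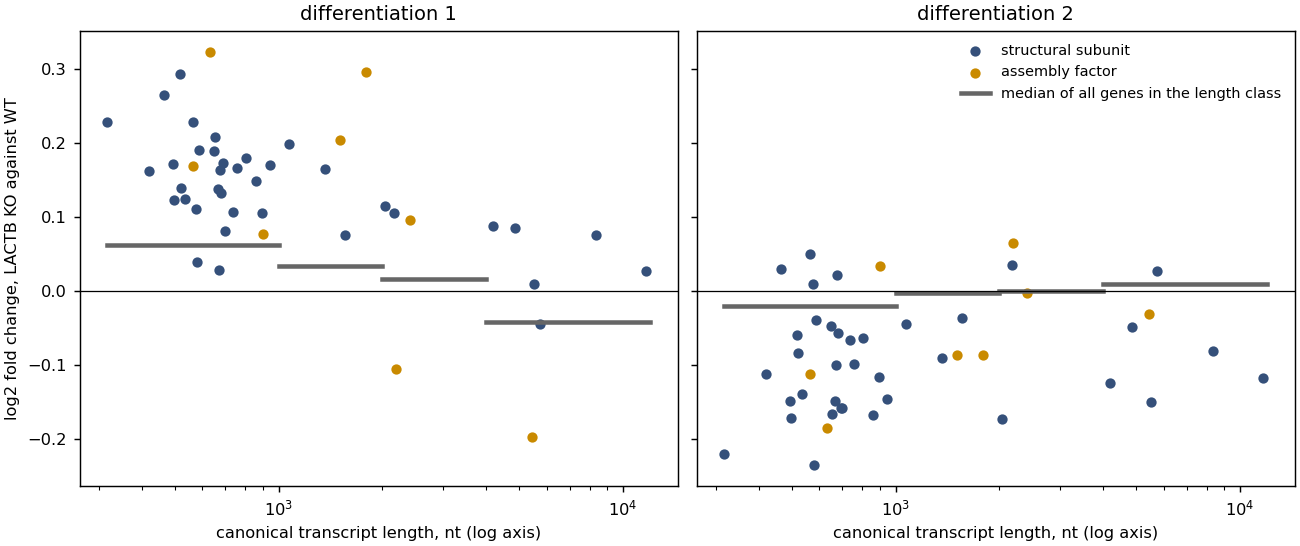
Log2 fold change of LACTB KO against WT for structural subunits (blue) and assembly factors (gold) against canonical transcript length on a log axis, in differentiation 1 (left) and differentiation 2 (right). Grey bars mark the median of all genes in each length class, which lies between -0.042 and 0.062 in differentiation 1 and between -0.020 and 0.010 in differentiation 2.

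The 15 other assembly factors of complex I are not named NDUFAF. In differentiation 1 13 of 15 had a log2 fold change above 0, with a median of 0.096, and in differentiation 2 4 of 15 did, with a median of -0.099. On clone sums 10 of 15 lay above 0, with a median of 0.033, and none passed an unadjusted p of 0.05 in these edgeR fits. Over all genes tested 49.9%, 50.4% and 51.7% lay above 0 in these 3 comparisons, and 3.21%, 3.36% and 6.36% passed that p. ACAD9, an acyl-CoA dehydrogenase that takes part in assembly of the membrane arm, averaged 35.1 ± 3.52 CPM for WT and 35.1 ± 3.91 CPM for LACTB KO. TMEM126B, which works in the same assembly complex, averaged 21.7 ± 3.48 CPM and 20.7 ± 1.56 CPM.

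The 7 subunits encoded by the mitochondrial genome (MT-ND1 to MT-ND6 and MT-ND4L) summed to 13837 ± 4089 CPM for WT and 12931 ± 3886 CPM for LACTB KO (SD over 6 libraries of each). Their genotype difference on clone sums had a median log2 fold change of -0.083, and none passed an unadjusted p of 0.05, against 6.36% of all genes. Between the differentiations, averaged over the 6 clones, all 7 lay lower in differentiation 2 at an unadjusted p under 0.05 in the edgeR fit, where 8.1% (1351 genes) of all genes passed in either direction, with a median of -0.61 and adjusted p between 0.466 and 0.524, so none passed after adjustment for all genes (0% of which passed). MT-ND4 was 6169, 4599.9 and 5824 CPM for J, K and L (WT) in differentiation 1 and 5075, 2622 and 3561 CPM in differentiation 2. For A, B and C (LACTB KO) it was 4917, 6236 and 4646 CPM and then 4720.5, 2489 and 3408 CPM. Every clone had the lower value in differentiation 2.

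Of 10 regulators of nuclear respiratory genes, 7 had a log2 fold change above 0 on clone sums, 6 in differentiation 1 and 8 in differentiation 2, and none passed an unadjusted p of 0.05 in these fits. Over all genes tested 51.7%, 49.9% and 50.4% lay above 0 there, and 6.36%, 3.21% and 3.36% passed that p. NRF1, a transcription factor of many respiratory chain genes, averaged 16.3 ± 0.965 CPM for WT and 16.9 ± 2.00 CPM for LACTB KO. GABPA, the DNA binding subunit of GABP, averaged 68.3 ± 8.33 CPM and 71.1 ± 2.02 CPM. PPARGC1A, a coactivator of mitochondrial biogenesis, was present only at low levels in the 12 libraries, between 0.218 and 0.606 CPM. Of the 4 related proteins, NDUFA4L2, a relative of NDUFA4 induced by hypoxia, averaged 0.706 ± 0.187 CPM for WT and 0.609 ± 0.118 CPM for LACTB KO. HIGD1A had a log2 fold change of -0.17 in differentiation 2 (unadjusted p = 0.0785 in the edgeR fit, adjusted p = 0.929), the smallest p of that list in the genotype comparisons.

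Many members have processed pseudogenes or readthrough partners that could share reads with them. Of 69 further genes with NDUF names, 32 had no count in any library and 13 had more than 12 counts in total. The pseudogene NDUFV2P1 held between 77 and 142 counts per library, beside at least 1412 for NDUFV2, and the readthrough gene NDUFC2-KCTD14 held between 0 and 44, beside at least 1516 for NDUFC2. NDUFA7 shares 68 exonic bases with RPS28 on the opposite strand, with 4546 counts per library for RPS28 and 246 for NDUFA7, and NDUFS3 shares 721 bases with PTPMT1 on its own strand.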

How the data were processed

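Bulk RNA-seq was performed by the authors on 12 iMGL libraries, made with a TruSeq RNA kit that does not mark strand. Per the labels and the methods of the study, reads were trimmed and aligned with STAR to hg38. The authors deposited 1 table of estimated counts per gene; the counting tool, its annotation and its use of strand are not given in the sources used here. Groups, clones and differentiations come from the labels.

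Estimated counts were rounded to whole numbers. CPM were scaled by TMM factors. Genes were filtered with filterByExpr and tested with edgeR 4.0.16 (quasi-likelihood, R 4.3.3), with Benjamini-Hochberg adjustment over all genes, on the sum of each clone's 2 libraries, within each differentiation, and for the interaction with clone as a fixed effect. The study fitted a mixed model (DREAM); limma 3.58.1 voom with clone as a random effect stood in for it as an alternative. Other alternatives were RLE and upper-quartile scaling, no filter, DESeq2 1.42.0, removal of the trend over level, length and GC content, a stromal covariate, replicate and clone-pair blocks, and leaving out each clone. The fits were run on simulated counts with the same dispersion for every gene. These had no clone effect, no stromal variation and no members moving together, so that check does not stand for the spread in these libraries. Lengths and coordinates are from GENCODE 44.

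Named genes were the core subunits (1 of them is not reported by name here but enters the counts and medians), all NDUFAF members, the 3 other structural subunits with the smallest p in each comparison, the highest and lowest per kb, and LACTB. NDUFA1, NDUFA13, NDUFV3, NDUFC1 and the genes of other lists were named after their values were seen. The members and lists were chosen with earlier results of these data known. A differentiation number is shared by 3 clones of each genotype and no label matches single clones across genotypes, so no pairing was assumed. Deviations from the genotype mean over both differentiations were correlated across all genes between libraries of the same differentiation. They had r of 0.25 and 0.61 for K with B and 0.26 and 0.48 for L with C (differentiations 1 and 2), while the other pairs lay between -0.50 and 0.17. A shift shared by all libraries of a differentiation stays in these values. Whether these clones shared a batch was not tested. Both counting error and the spread between clones limit the precision of the low assembly factors.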

Additional observations from a re-analysis of the deposited data

Results flagged for a closer look

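Of 102 groups of 6 libraries tested, 4 held a library whose gap to its nearest neighbour exceeded Dixon's critical value for 6 values, where chance gives about 1 in 20. NDUFS7 was 94.0 CPM in WT clone J of differentiation 2, with the next library at 78.7. NDUFAB1 was 26.9 CPM in WT clone L of differentiation 1, with the next at 34.6. NDUFAF1 was 20.1 CPM in LACTB KO clone A of differentiation 1, with the next at 17.0. LACTB was 98.1 CPM in WT clone K of differentiation 2, with the next at 81.2.

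NDUFA2 was higher in differentiation 2 than in differentiation 1 in all 3 WT clones and lower in all 3 LACTB KO clones. The difference of these steps was -0.237 on the log2 scale in the edgeR interaction fit and did not pass the threshold, with an unadjusted p of 0.0839. On the opposite strand, exons of NDUFA2 overlap TMCO6 over 124 bases and IK over 54 bases. These held 467 and 3220 counts per library against 1291 for NDUFA2.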

How the results depend on the processing

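No member passed an adjusted p of 0.05 under any alternative run. Subtracting the least squares trend over level, length and GC content across all genes, on which strongly lower genes can weigh, turned several signs. For the clone comparison the structural median became -0.146 with 4 of 38 above 0, and the log2 fold changes became 0.129 for NDUFS1, -0.116 for NDUFV1, -0.162 for NDUFS3, -0.172 for NDUFS7, -0.154 for NDUFS8 and NDUFAF8, -0.0336 for NDUFAF3, 0.243 for NDUFAF5, 0.0283 for NDUFAF7, -0.107 for NDUFB2, -0.109 for NDUFA12 and -0.102 for NDUFB10. For differentiation 1 the structural median became -0.0306 with 14 of 38 above 0, and values became -0.012 for NDUFA2, 0.0785 for NDUFV3 and 0.153 for NDUFAF5. For differentiation 2 the assembly factor median became 0.0211 with 5 of 8 above 0. With the stromal covariate the clone medians were 0.235 (structural) and 0.257 (assembly factors), and NDUFS1, NDUFV2 and NDUFS5 turned to 0.0917, 0.158 and 0.209. In that edgeR fit 18 of 46 members passed an unadjusted p of 0.05, against 572 of all 17577 genes (3.25%). In differentiation 2 the covariate left 4 of 8 assembly factors above 0. In the interaction 3 of 46 members passed the unadjusted p with it, against 372 of all 16681 genes. In both the covariate was chosen after seeing the data. RLE scaling passed 1 of 46 members in the interaction, against 156 of all 16681 genes. Values near 0 turned sign for NDUFV2 without a filter (0.011), for NDUFS3 and NDUFA9 with upper-quartile scaling (-0.00494 and -0.00429), and for NDUFA9 with voom (-0.002). The cause of these turns was not tested.

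With the differentiation number as replicate block, which names no single pair of clones, the structural median of the clone comparison was 0.0215, NDUFS3 was -0.00249 and NDUFA9 was -0.000762, and no member passed an unadjusted p of 0.05. That fit had no term for clone, so the 2 libraries of a clone counted as separate replicates. Clone pairs as block (J with A, K with B, L with C) came from an earlier look at these data. With them 1 of 46 members passed an unadjusted p of 0.05, against 1159 of all 17577 genes.

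Leaving out each clone moved the structural median of the clone comparison between -0.0406 (without L) and 0.0943 (without C), with 12 to 34 of 38 above 0. That of the assembly factors moved between -0.0158 and 0.0981, with 3 to 7 of 8 above 0. In these fits 0 to 1 members passed the unadjusted p, the 1 without C, where 772 of all 18105 genes did. Single genes ranged from -0.0808 to 0.00464 (NDUFS1), -0.00872 to 0.0805 (NDUFV1), -0.0527 to 0.0664 (NDUFV2), -0.0464 to 0.0799 (NDUFS3), -0.0197 to 0.113 (NDUFS7), -0.0521 to 0.104 (NDUFS8), -0.0953 to 0.0978 (NDUFS5), -0.0331 to 0.0526 (NDUFA9), -0.0111 to 0.229 (NDUFAF2), -0.03 to 0.146 (NDUFAF3), -0.0224 to 0.136 (NDUFAF4), -0.0795 to 0.0666 (NDUFAF7) and -0.0573 to 0.0949 (NDUFAF8). LACTB ranged from -3.2 (without B) to -1.47. In differentiation 1, 0 to 4 members passed the unadjusted p, the 4 without C, where 829 of all 16327 genes did (5.08%). In differentiation 2 the structural median ranged from -0.149 to 0.0166 (without J), with 3 to 22 of 38 above 0, and the assembly factor median from -0.1 to 0.047, with 0 to 7 of 8. In the interaction the structural median ranged from -0.387 (without K) to -0.107, with 1 to 4 of 38 above 0. There 0 to 18 members passed the unadjusted p, the 18 without K, where 1325 of all 17069 genes did (7.76%). The assembly factor median ranged from -0.325 to 0.0147 (without A), with 1 to 5 of 8 above 0.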
